A study of Mus musculus with 6 samples.

Results

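Cholesterol and fatty acid synthesis genes were read in splenic Tregs (regulatory T cells), the CD4+ lineage that depends on Foxp3 and holds immune reactions in check. The 37 genes were chosen by symbol: 18 enzymes of the sterol pathway, 5 regulators of the SREBP transcription factors, 4 genes of cholesterol transport and its sensor LXR, and 10 genes that make, lengthen or desaturate fatty acids. A row was found for 36 of the 37 among 15944 genes; Fads2 had none. RNA was sequenced in bulk from 3 libraries of RORγt+ Tregs (CD3+, CD4+, positive for an RFP reporter of Foxp3 and a GFP reporter of RORγt) and 3 libraries of CCR6+RORγt- Tregs (CD3+, CD4+, Foxp3 reporter positive, RORγt reporter negative, stained for the chemokine receptor CCR6). Both sorts came from spleens of C57BL/6 mice that carry both reporters. CD4+ cells were enriched first and the labels give neither age nor sex. Nothing in the labels says which libraries came from different mice, and the p-values cover only the variation among these 6 libraries, part of which may be technical. In bulk RNA, fewer cells of a type and less RNA per cell cannot be told apart.

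Cells build cholesterol from acetyl-CoA through mevalonate, squalene and lanosterol. SREBP2, escorted by SCAP and held back in the endoplasmic reticulum by the INSIG proteins when sterols are plentiful, switches on the genes of this pathway, and SREBP1 does so mainly for fatty acid synthesis. LXR receptors sense oxysterols and switch on the exporters ABCA1 and ABCG1. RORγt is a nuclear receptor, and sterol intermediates formed between lanosterol and cholesterol are known to bind it as ligands. This background is not a result of these libraries.

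Upstream sequences are shown for Hmgcs1, an early enzyme whose window was the only one among the members with a sterol element, for Insig1 and Ebp, whose values did not overlap between the groups, and for Fasn as a fatty acid gene. They were taken from RefSeq promoters (GRCm38.p6) and run 5′ to 3′ on the gene's strand, cut back where GENCODE release M21 annotates an exon. Capitals mark the sterol regulatory element TCACNCCAC and the CCAAT box bound by NF-Y, on either strand (ATTGG on the other).
Hmgcs1 (chr13:119690101-119690350, plus strand): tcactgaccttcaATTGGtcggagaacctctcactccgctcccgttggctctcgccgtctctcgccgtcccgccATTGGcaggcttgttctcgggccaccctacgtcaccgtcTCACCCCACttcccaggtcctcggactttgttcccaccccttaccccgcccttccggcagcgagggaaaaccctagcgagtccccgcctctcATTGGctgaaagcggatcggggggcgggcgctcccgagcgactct
Insig1 (chr5:28071162-28071362, plus strand): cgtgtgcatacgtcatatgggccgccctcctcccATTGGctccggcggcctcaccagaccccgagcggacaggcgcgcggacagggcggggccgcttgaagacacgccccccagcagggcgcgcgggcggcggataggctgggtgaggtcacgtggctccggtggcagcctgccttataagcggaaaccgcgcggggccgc
Ebp (chrX:8193513-8193762, minus strand): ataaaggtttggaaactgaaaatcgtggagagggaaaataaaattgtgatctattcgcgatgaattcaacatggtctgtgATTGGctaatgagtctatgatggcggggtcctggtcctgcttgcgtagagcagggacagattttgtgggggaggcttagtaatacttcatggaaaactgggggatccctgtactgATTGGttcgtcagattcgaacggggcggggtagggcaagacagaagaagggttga
Fasn (chr11:120824548-120824797, minus strand): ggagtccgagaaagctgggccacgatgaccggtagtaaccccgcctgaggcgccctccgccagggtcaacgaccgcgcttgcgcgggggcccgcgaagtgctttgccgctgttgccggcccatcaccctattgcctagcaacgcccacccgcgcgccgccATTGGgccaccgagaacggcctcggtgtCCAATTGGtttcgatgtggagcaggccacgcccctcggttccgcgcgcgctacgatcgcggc

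In the Hmgcs1 window the sterol element began 137 bases upstream of the start, between inverted CCAAT boxes that began 176 and 45 bases upstream. Over the 250 bases before each start, 29 of the 37 genes had a RefSeq promoter. A CCAAT box stood in 14 of the 15 sterol pathway enzymes with a promoter (93.3%), in 3 of 7 fatty acid genes (42.9%) and in 40.6% of the 10341 genes of the table with a promoter. In Fasn, a CCAAT box that began 62 bases upstream overlapped an inverted one that began 59 bases upstream. The GC box GGGCGG, bound by Sp1, was in 14 of 15 sterol pathway enzymes (93.3%), 3 of 7 fatty acid genes and 61% of the table's genes. Fads2, which had no row, is counted among the 7 fatty acid genes and among these 3. The sterol element was in 1 of 15 sterol pathway enzymes and 1.1% of all genes. The ROR response element ANTAGGTCA was in none of the 29 genes and in 0.396% of all genes. Genes with several annotated starts were counted once if any window matched. A match is a description of letters, and a missing match says only that these letters are not in the window.

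Values are the authors' normalized counts, which are scaled between libraries and not for gene length. Column totals lay between 11325902 and 11890770, and the approximate depth was 9200000 to 14500000 reads per library. RORγt+ replicate 3 stood apart, with 1247 genes at 0 against 438 to 638 in the other libraries and correlations to them of 0.932 to 0.939. The T cell label held in every library, with Cd3e between 5409 and 8913 normalized counts. Foxp3 had 10835 to 12609 in RORγt+ and 9790 to 10187 in CCR6+RORγt- libraries (adjusted p = 0.595, limma). Of 11 T cell and Treg rows, 4 were higher in RORγt+ libraries without overlap and 1 (Cd3g) lower, where 8.31% and 9.81% of all genes were. The 4 were Foxp3, Il2ra, Ccr6 and the Ctla4 row of higher level. Ikzf2 had 6358, 6181 and 1435 in RORγt+ and 4784, 6205 and 7969 in CCR6+RORγt- libraries. Ccr6, the marker that the second sort was stained for, averaged 804 normalized counts in RORγt+ and 134 in CCR6+RORγt- libraries and passed the test (adjusted p = 0.00554, limma). The sort named for CCR6 thus had the lower Ccr6 RNA level. Mitochondrially encoded genes took 3.90% to 4.8% of RORγt+ libraries and 5.04% to 6.26% of CCR6+RORγt- libraries. Of 8 B cell markers none passed the test, with summed levels of 7374 to 10914 and 8401 to 10624 normalized counts in the 2 sorts. Of 9 monocyte and macrophage markers 5 had a row, with sums of 261 to 415 in RORγt+ and 836 to 976 in CCR6+RORγt- libraries, most of it Cybb, the only one past the test (log2 fold change −1.99 ± 0.17, SE, adjusted p = 0.00859). Lyz2 averaged 42.9 and 10.6, Itgam 42.15 and 15.54, Csf1r 7.40 and 2.53 and Cd68 15.8 and 16.8 in the 2 sorts. Itgam (adjusted p = 0.327, limma) and Csf1r (adjusted p = 0.472, limma) were higher in RORγt+ libraries without overlap. Red cell markers summed to 198 to 1219 in RORγt+ libraries and 75.7 to 6172 in CCR6+RORγt- libraries. Of the 6 γδ T cell markers with a row none passed, and they summed to 181 to 238 in RORγt+ and 132 to 194 in CCR6+RORγt- libraries. Of these, Trdc, the constant region of the δ chain, had 99.8, 89.2 and 109 normalized counts in RORγt+ libraries, against 51.5, 61.8 and 71.5 in CCR6+RORγt- libraries (adjusted p = 0.354, limma). Cd163l1 had 11.04, 4.65 and 1.99 in RORγt+ libraries, against 0, 0.70 and 0 in CCR6+RORγt- libraries (adjusted p = 0.324, limma). Both lay higher in every RORγt+ library than in any CCR6+RORγt- library, as did 8.31% of all genes and the sterol sums given below. The other γδ markers with a row overlapped between the sorts. Their log2 fold changes were −0.02 for Tcrg-C1, −0.24 for Tcrg-C2, −0.56 for Tcrg-C4 and 0.70 for Blk. The part of any of these in the results below was not tested.

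The comparison asked how the lipid synthesis genes of Tregs that express RORγt compare with those of Tregs labelled CCR6+RORγt-, whose Ccr6 RNA was the lower of the 2 sorts. Sterol pathway enzymes had small differences of one sign: all 18 had a log2 fold change above 0 (RORγt+ over CCR6+RORγt-, on log2 of the value plus 1), with a median of 0.38, a 1.30-fold higher level. Over all genes 48.8% lay above 0 and the median was −0.01. None of the 36 genes passed limma's test at a Benjamini-Hochberg adjusted p under 0.05, where 0.564% of all genes did, and the lowest adjusted p was 0.207. At an unadjusted p under 0.05 there were 6 genes, all with a positive fold change, where 4.8% of all genes were in that direction, 6.12% in the other and 10.9% in either. In 7 of the 36 every RORγt+ library lay above every CCR6+RORγt- library, as in 8.31% of all genes, and in none the reverse (9.81% of all genes); 18.1% of all genes did not overlap in one or the other direction. The fatty acid genes had a median of 0.09 over 9 measured, with 5 above 0; without RORγt+ replicate 3 the median was 0.0013.

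Summed over the 18 enzymes, the sterol pathway stood at 7275, 6895 and 7519 normalized counts in RORγt+ replicates 1 to 3, against 5391, 5531 and 5507 in CCR6+RORγt- replicates 1 to 3. The groups did not overlap, and the gap between them was wider than the range within either. The 10 enzymes up to lanosterol summed to 3868 ± 29.4 in RORγt+ and 2830.1 ± 137 in CCR6+RORγt- libraries (SD, n = 3). The 8 enzymes after lanosterol summed to 3362 ± 288 and 2647 ± 87.6 in the 2 sorts, again without overlap. The 9 fatty acid genes summed to 9437, 9705 and 13141 in RORγt+ libraries, against 10311, 9858 and 10011 in CCR6+RORγt- libraries, so that RORγt+ replicates 1 and 2 lay below all CCR6+RORγt- libraries and replicate 3 above them. These sums carry no p-value, because the genes were chosen with earlier results known.

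**Figure D1:**
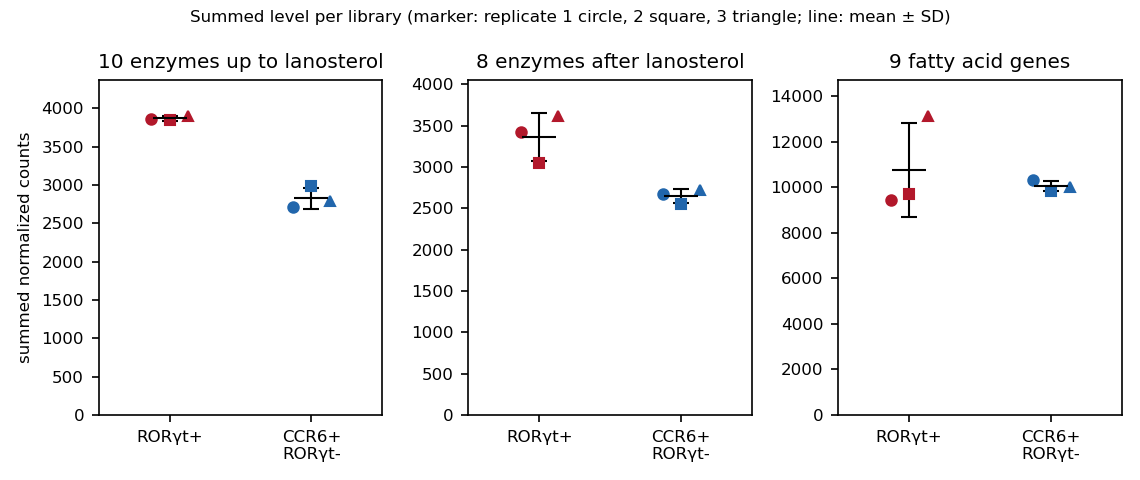
Summed normalized counts per library (vertical axis) of the 10 sterol enzymes up to lanosterol, the 8 after it and the 9 fatty acid genes, in RORγt+ (left) and CCR6+RORγt- Tregs (right); points are libraries and lines the mean ± SD (n = 3). The sterol sums of the 2 sorts do not overlap, while the fatty acid sum of RORγt+ replicate 3, at 13141, stands above the other 5 libraries.

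In the branch from acetyl-CoA to lanosterol, all 10 fold changes were above 0, with a median of 0.43 and a range of 0.12 to 0.73. Sqle (chr15:59315077-59331192, GRCm38), squalene epoxidase, a rate-controlling step, stood at 326, 303 and 387 normalized counts in RORγt+ Tregs, against 218, 226 and 213 in CCR6+RORγt- Tregs. Its CCR6+RORγt- libraries differed little from each other, and the lowest RORγt+ value was well above all of them. The log2 fold change was 0.62 ± 0.16 (SE; adjusted p = 0.221, limma).

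Fdps (chr3:89093588-89101959), which makes farnesyl diphosphate, the branch point to sterols and to protein prenylation, had 475, 417 and 597 normalized counts in RORγt+ libraries and 288, 349 and 287 in CCR6+RORγt- libraries. Its log2 fold change of 0.68 ± 0.18 (adjusted p = 0.233, limma) was the second largest of the members, after Idi1. Of its 31-base sequence windows, 24.6% also occur in Gm43738, which averaged 92.3 and 53.9 normalized counts in the 2 sorts, so reads could be split between them. Acat2, the cytosolic thiolase at the start of the pathway, had 258, 236 and 277 in RORγt+ and 172, 209 and 229.6 in CCR6+RORγt- libraries, a gap of a few counts between the nearest libraries (0.34 ± 0.18, adjusted p = 0.584). It shares 43.7% of its windows with Acat3, which averaged 10.2 and 6.84.

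Hmgcs1, the HMG-CoA synthase whose promoter is shown above, had 815, 941 and 657 normalized counts in RORγt+ Tregs and 514, 725 and 675 in CCR6+RORγt- Tregs. Its RORγt+ replicate 3 fell within the CCR6+RORγt- range, and the log2 fold change was 0.33 ± 0.20 (adjusted p = 0.629). Fdft1, squalene synthase, had 606, 551 and 636 against 558, 459 and 499, with only RORγt+ replicate 2 and CCR6+RORγt- replicate 1 crossing. Fdft1 shares 31.9% of its windows with other genes, 17.6% with Ctsb, which averaged 2728 and 2563 normalized counts in the 2 sorts, above Fdft1's own 598 and 506, so reads could be split between them. Idi1, the isomerase that makes dimethylallyl diphosphate, had the largest fold change of the 18 enzymes, 0.73 ± 0.34, but a wide spread, from 314 to 679.6 in RORγt+ and from 196 to 364 in CCR6+RORγt- libraries (adjusted p = 0.509); 27.1% of its windows are shared with other genes. The mevalonate kinase Mvk, the phosphomevalonate kinase Pmvk, the decarboxylase Mvd and the lanosterol synthase Lss lay between 95 and 407 normalized counts in RORγt+ libraries and between 91.55 and 309.9 in CCR6+RORγt- libraries. Their fold changes were 0.12 to 0.54 and their groups overlapped.

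**Figure D2:**
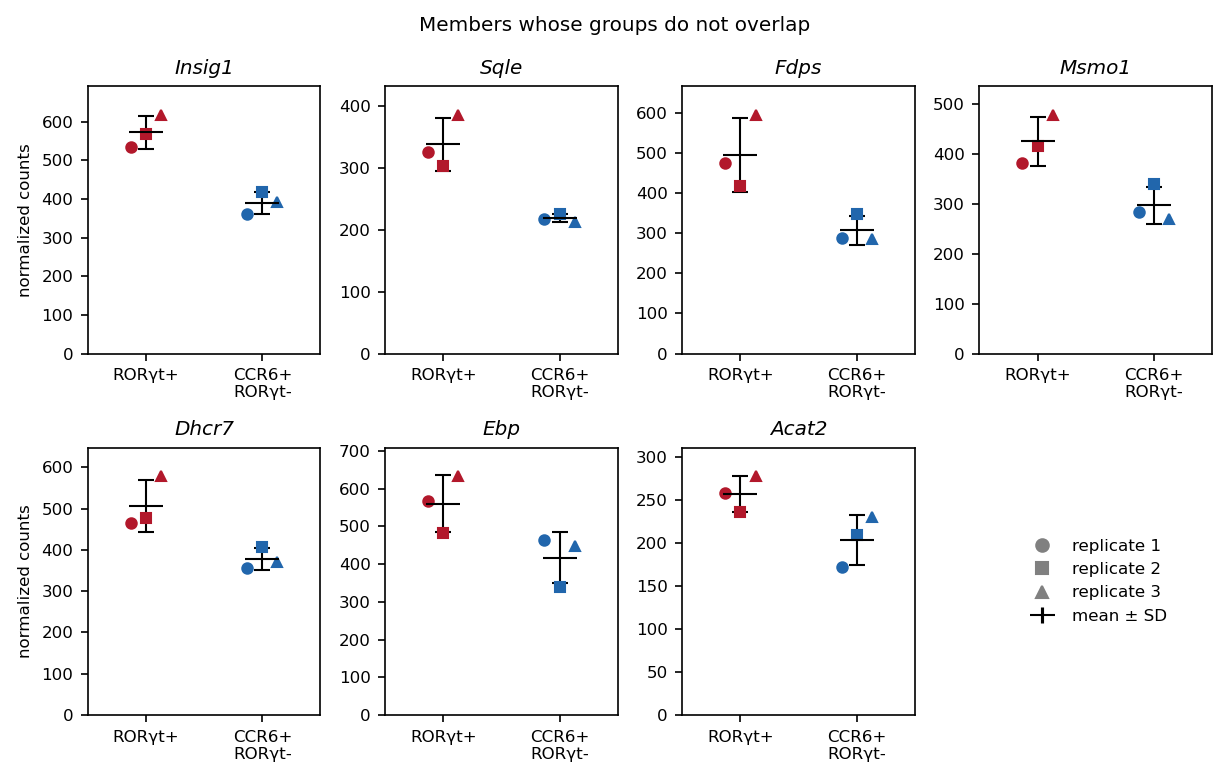
Normalized counts per library (vertical axis) of the 7 members whose groups do not overlap, ordered by unadjusted p, in RORγt+ (left) and CCR6+RORγt- Tregs (right); symbols mark the replicate and lines the mean ± SD (n = 3). RORγt+ replicate 3 is the highest library in all 7 genes, and the gap between groups is widest for Insig1, Sqle and Fdps and narrowest for Acat2.

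After lanosterol, in the steps whose intermediates include ligands of RORγt, all 8 fold changes were above 0, with a median of 0.36. Msmo1 (chr8:64718139-64733792), the sterol C4-methyl oxidase, had 382, 415 and 479 normalized counts in RORγt+ Tregs, against 283, 339.5 and 269.6 in CCR6+RORγt- Tregs. The groups did not overlap, and the log2 fold change was 0.52 ± 0.17 (adjusted p = 0.323, limma). Dhcr7 (chr7:143823145-143848410), the reductase that ends one arm of the pathway in cholesterol, had 464, 476 and 579 against 357, 407 and 370.1, a log2 fold change of 0.42 ± 0.15 (adjusted p = 0.383). Ebp (chrX:8185329-8193512), the sterol Δ8-Δ7 isomerase, had 566, 482 and 633 against 463, 339.6 and 447, a smaller gap between the nearest libraries (0.43 ± 0.18, adjusted p = 0.458). In Msmo1, Dhcr7 and Ebp at most 2.76% of windows occur in other genes.

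Cyp51, the lanosterol demethylase that opens this stretch, had 715, 615 and 826 normalized counts in RORγt+ and 636, 497 and 613 in CCR6+RORγt- libraries; the groups overlapped and the log2 fold change was 0.30 ± 0.17 (adjusted p = 0.611). Sc5d, the lathosterol oxidase, had 818, 697 and 701 against 592, 635 and 712, with its highest CCR6+RORγt- library above the 2 lower RORγt+ ones. Nsdhl, which works with Msmo1 to remove the C4 methyl groups, ranged from 203 to 245 in RORγt+ and from 159 to 209 in CCR6+RORγt- libraries (0.24 ± 0.19). The ketoreductase Hsd17b7 and the C14 reductase Tm7sf2 had the lowest levels per kilobase of exon among the 18. Their normalized counts were 77.7 to 197 and 30.8 to 101 in RORγt+ libraries and 65.1 to 114 and 36.5 to 69.8 in CCR6+RORγt- libraries. RORγt+ replicate 1 held both the highest Hsd17b7 value and the lowest Tm7sf2 value.

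Without RORγt+ replicate 3, 16 of the 18 sterol enzymes had a fold change above 0 and the median was 0.31; Mvk and Tm7sf2 had −0.22 and −0.30. Sqle had 0.52 ± 0.13 (adjusted p = 0.129, limma). Without CCR6+RORγt- replicate 3 the count was also 16, with Mvk at −0.03 and Tm7sf2 at −0.14. With 1 library fewer, groups can only overlap less, and the share of all genes without overlap rose from 18.1% to between 24.4% and 36.9%. Without RORγt+ replicate 3, 10 members were higher and 3 (Abcg1, Nr1h2 and Acly) lower without overlap, where 18.5% of all genes were higher and 18.4% lower. Without RORγt+ replicate 2 there were 11 higher and 0 lower (13% and 14.3% of all genes), and without CCR6+RORγt- replicate 1 there were 12 higher and 1 lower (11.8% and 13.2% of all genes).

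**Figure D3:**
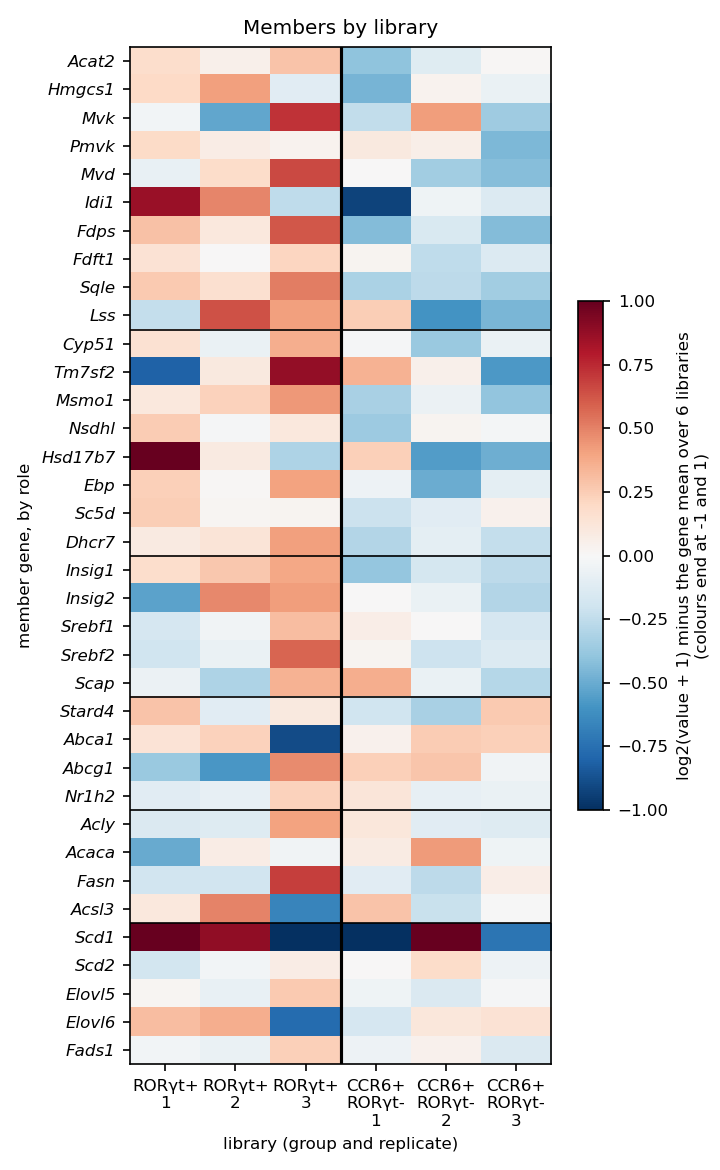
Heat map of log2(value + 1) minus the gene's mean over the 6 libraries for the 36 members (rows, by role) in RORγt+ replicates 1 to 3 (left) and CCR6+RORγt- replicates 1 to 3 (right); red is above the mean and blue below, and colours end at 1 and −1. The rows of sterol enzymes are mostly red on the left and blue on the right, while the fatty acid rows show no such division and Scd1 varies most.

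Among the regulators, Insig1 (chr5:28071363-28078662), an anchor of the SREBP escort and itself a target of SREBP2, had the lowest p of all members. Its values were 533, 568 and 618 normalized counts in RORγt+ Tregs, against 359.6, 416 and 392 in CCR6+RORγt- Tregs. Every RORγt+ library exceeded every CCR6+RORγt- library by more than the range within either sort, yet the log2 fold change of 0.56 ± 0.14 did not pass over all genes (unadjusted p = 0.00503, adjusted p = 0.207, limma). Over all alternative settings the adjusted p lay between 0.0812 and 0.618.

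Its paralogue Insig2, which does not depend on SREBP in the same way, ranged from 170.4 to 345 in RORγt+ and from 202 to 248 in CCR6+RORγt- libraries, with overlap (0.24 ± 0.29, adjusted p = 0.845). Srebf2, which encodes SREBP2, had 3273, 3589 and 5620.4 normalized counts in RORγt+ Tregs and 3829, 3243 and 3409 in CCR6+RORγt- Tregs. RORγt+ replicate 3 set the difference: with it the difference on the log2 scale was 0.21 (95% confidence interval −0.28 to 0.70; adjusted p = 0.798), and −0.02 when it was left out. Srebf1, which encodes SREBP1, ranged from 1008 to 1401 in RORγt+ and from 1009 to 1185 in CCR6+RORγt- libraries (0.07, 95% confidence interval −0.30 to 0.44; −0.07 without RORγt+ replicate 3). Scap had 1135, 949.6 and 1503 against 1516, 1129 and 969, with a log2 fold change of −0.01 (adjusted p = 0.993). Its sign turned when the libraries were scaled to their totals (0.02).

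**Figure D4:**
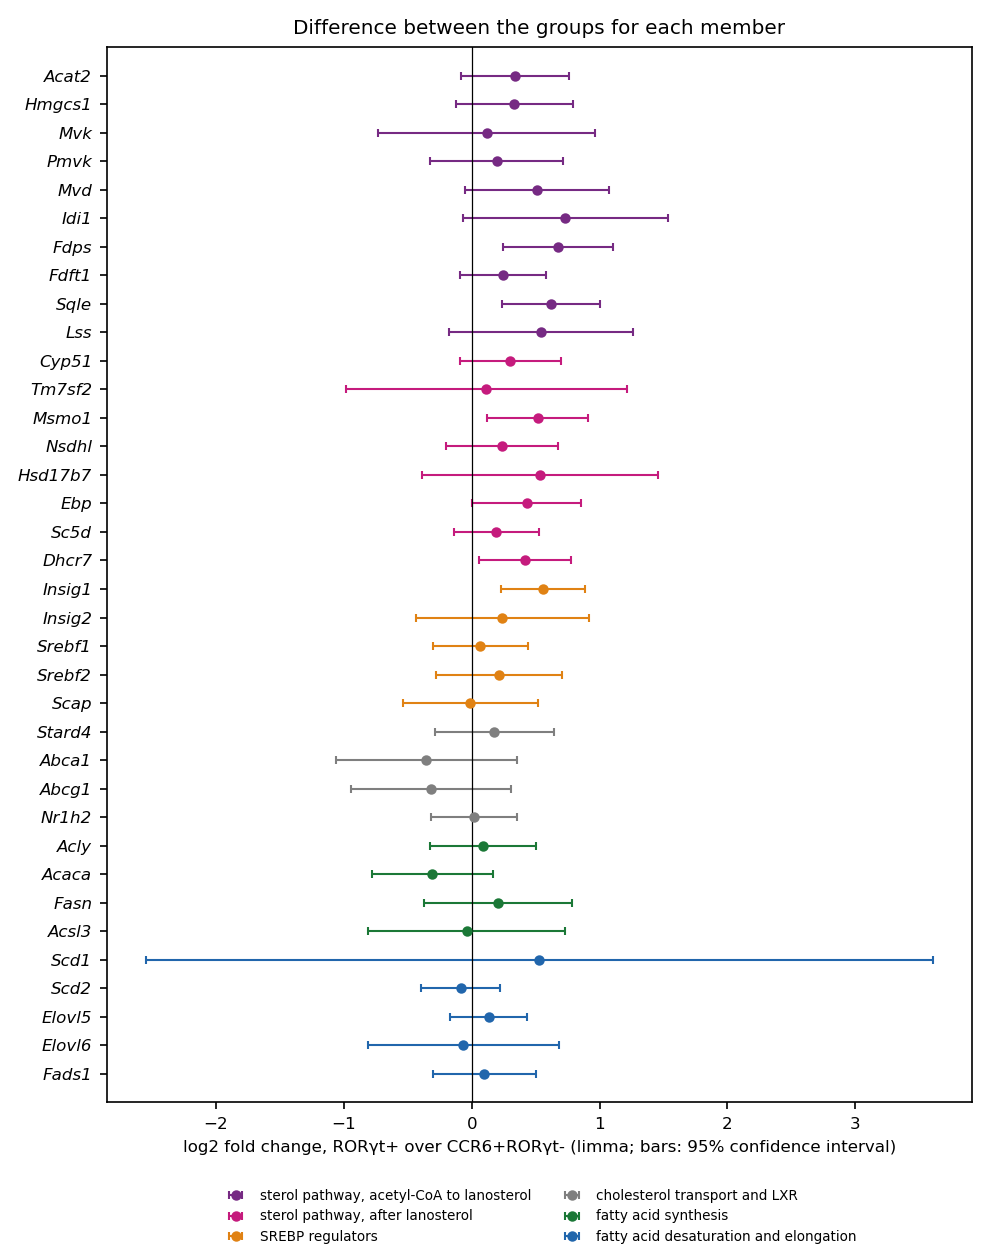
Log2 fold change of each member (horizontal axis, RORγt+ over CCR6+RORγt-, limma on log2(value + 1)), grouped by role from top to bottom; bars are 95% confidence intervals. All 18 sterol enzymes lie above 0, the intervals of Sqle, Fdps, Msmo1, Dhcr7, Ebp and Insig1 do not reach 0 before adjustment, and the interval of Scd1 is the widest, from −2.55 to 3.61.

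Of the 4 transport and LXR genes, 2 had a log2 fold change above 0. Abcg1, the LXR-induced exporter, had 1029.7, 890.4 and 1842 normalized counts in RORγt+ Tregs, against 1570.5, 1611 and 1297 in CCR6+RORγt- Tregs. RORγt+ replicates 1 and 2 lay below every CCR6+RORγt- library and replicate 3 above them all. The difference on the log2 scale was −0.32 ± 0.27 (adjusted p = 0.755); leaving out replicate 3 gave −0.63 ± 0.13 (adjusted p = 0.0901). Abca1, the other LXR-induced exporter, had 329.8, 353 and 161 against 309, 359 and 354, where the same library was the one far below the rest; its log2 fold change was −0.35 ± 0.30, and 0.01 without that library. Nr1h2, which encodes LXRβ, had 1036, 1061 and 1316 against 1222, 1063 and 1071 (0.02 ± 0.14; −0.09 without RORγt+ replicate 3). Stard4, a cytosolic sterol carrier, ranged from 494 to 653 in RORγt+ and from 427 to 643 in CCR6+RORγt- libraries (0.18 ± 0.20, adjusted p = 0.832).

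Of the genes that make palmitate, Acly, the ATP citrate lyase that supplies cytosolic acetyl-CoA, had 2841, 2870.1 and 4159 normalized counts in RORγt+ and 3404, 2895 and 2870.2 in CCR6+RORγt- libraries. Fasn, fatty acid synthase, had 2073, 2069.8 and 3811 against 2184, 1969.5 and 2467. In both, RORγt+ replicate 3 was the highest of the 6 libraries; RORγt+ replicates 1 and 2 lay just below all CCR6+RORγt- libraries for Acly and within their range for Fasn. The log2 fold changes were 0.09 ± 0.18 and 0.21 ± 0.25, and −0.09 for each without that library.

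Acaca, acetyl-CoA carboxylase, the committed step, had 448, 669.8 and 618 against 672, 851 and 615 (−0.31 ± 0.20, adjusted p = 0.676). The groups overlapped, and 31.7% of its windows occur in Gm5182, which averaged 2.24 and 9.13 normalized counts. The acyl-CoA synthetase Acsl3 ranged from 64.4 to 144 in RORγt+ and from 87.6 to 125 in CCR6+RORγt- libraries (−0.04 ± 0.33).

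The 5 measured genes of desaturation and elongation overlapped between the groups. Elovl5, an elongase of polyunsaturated fatty acids, had 2289, 2147 and 2708 against 2197, 2045 and 2243 (0.13 ± 0.13, adjusted p = 0.794). Scd2, a stearoyl-CoA desaturase, had 1168, 1302 and 1399 against 1329, 1501 and 1276 (−0.09 ± 0.13, adjusted p = 0.892). Its paralogue Scd1 was low and in some libraries near the floor, at 30.5, 18.6 and 2.33 against 0.97, 53.3 and 5.38. A single read is worth 0.820 to 1.24. The values spread widely within both sorts, and no difference was detectable (0.53 ± 1.32, adjusted p = 0.945, limma). Elovl6 ranged from 126 to 278 in RORγt+ and from 192 to 239 in CCR6+RORγt- libraries, with RORγt+ replicate 3 the lowest (−0.07 ± 0.32; 0.30 without it). The Δ5 desaturase Fads1 ranged from 205 to 253 and from 194 to 221 in the 2 sorts.

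Levels per kilobase of annotated exon allow only a rough comparison between genes, because the length does not follow which transcripts are in use. Elovl5 had 856 normalized counts per kilobase in RORγt+ and 777 in CCR6+RORγt- Tregs. Srebf2 had 819.5 and 688, Acly 714 and 663, and Nr1h2 567 and 558. Fdps, at 341 and 212, and Ebp, at 321 and 239, were the highest of the sterol enzymes on this scale. The lowest members were Scd1 (3.54 and 4.11), Hsd17b7 (24.9 and 16.3), Acsl3 (26.9 and 26.5) and Abca1 (27.4 and 33.2). The regulators Srebf2 and Srebf1 (273 and 258) were thus more abundant per length than most of the enzymes.

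Genes that neighbour the pathway were read from 6 further lists, and none of their members passed the test. The isoprenoid branch and prenylation list had 14 measured members with a median of 0.03. The farnesyltransferase subunit Fntb had 167, 184 and 224 against 249, 259 and 290.4 normalized counts, without overlap (−0.48, adjusted p = 0.402). Pdss2, a subunit of the synthase that makes the side chain of coenzyme Q, had 52.7, 88.9 and 61.3 against 76.4, 90.0 and 131 (−0.54, adjusted p = 0.618). The list of SREBP processing and sterol-regulated degradation had a median of −0.04 over 14. Erlin1, a sterol-responsive scaffold of that degradation, had 77.8, 17.9 and 38.8 in RORγt+ against 124, 240.5 and 138 in CCR6+RORγt- libraries (−2.05 ± 0.53, adjusted p = 0.215), and Faf2 had 912, 834 and 689 against 1188, 1052 and 1066 (adjusted p = 0.327). Their groups did not overlap.

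For cholesterol storage, trafficking and oxysterols, 16 of 22 listed genes had a row and the median was 0.01. Lipa, the lysosomal acid lipase that frees cholesterol from its esters, had 1289, 1322 and 2058 normalized counts in RORγt+ Tregs, against 964, 877 and 916 in CCR6+RORγt- Tregs (0.73 ± 0.20, adjusted p = 0.231). Npc2, which binds cholesterol in the lysosome, had 2827, 2940.1 and 3889 against 2563, 2307 and 2531 (adjusted p = 0.435). In both, all RORγt+ libraries were above all CCR6+RORγt- libraries and replicate 3 was the highest. The list of fatty acid and glycerolipid synthesis had a median of 0.05 over 22 measured genes; the phosphatidate phosphatase Lpin2 (−0.41, adjusted p = 0.343) and the carboxylase Acacb (1.01, adjusted p = 0.366, at 21.6 to 32.6 against 10.6 to 14.2 normalized counts) had the lowest p. Fatty acid oxidation had a median of 0.04 over 18 measured genes, with the lowest adjusted p, 0.527, for the carnitine carrier Slc25a20 (0.28), followed by Cpt1a (0.42, adjusted p = 0.643), the carnitine palmitoyltransferase. Growth signalling linked to SREBP had a median of −0.04 over 12, with Tsc1 (−0.37, adjusted p = 0.403) and Mtor (−0.38, adjusted p = 0.458) having the lowest p.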

How the data were processed

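RNA from 3 RORγt+ and 3 CCR6+RORγt- splenic Treg libraries was sequenced. For each gene and library the authors deposited a signal, namely a normalized count to 2 decimals. The submitters' processing notes list Salmon 1.2.0, DESeq2 (no version) and the build GRCm38 but assign them no step; filtering was not stated. From the values, every library's median ratio to the geometric mean was 1.003, and low values clustered at multiples of the value of 1 read. Only 51.4% to 69.5% of low values (up to 20 reads) lay within 0.1 of a whole read, so whole reads could not be recovered and no count test was run. Depths are totals divided by that value.

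The 37 members and all lists were chosen with earlier results of these data known. Values were analysed as log2(value + 1) with limma 3.58.1 in R 4.3.3 over all 15944 genes, with no filter (group as the only term, moderated variances that follow a trend in mean level, two-sided tests). A call needed a Benjamini-Hochberg adjusted p under 0.05. Fold changes on this scale understate those of low genes. Named members were those without overlap between groups and, per role, the 2 of lowest p and the 2 of highest level; others are given by range. Idi1, Insig2, Scd1 and Nsdhl are described further after their values were seen. In each neighbouring list the 2 of lowest p are named. On simulated counts for this comparison over 15944 genes, the test recovered 99 of 100 genes given a 4-fold difference and 78 of 100 given a 2-fold one, and made 6 false calls. The changed genes were drawn without those of low level, and every library had the same spread, so none stood apart as RORγt+ replicate 3 did. Differences under 2-fold, the size seen in the sterol enzymes, were not simulated, so these rates do not hold for them. Positions, exon lengths and shared windows of 31 bases came from GENCODE M21 (GRCm38), in which 15851 of the table's identifiers were found.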

Additional observations from a re-analysis of the deposited data

How the results depend on the processing

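No member passed the threshold under any of the 15 alternatives run: pseudocounts of 0.1 and 5, 3 other scalings, a mean of at least 10, robust variances, array weights, a replicate block and each library left out. TMM, median-of-ratios factors and DESeq2 were not run, since the values are not counts. The median of the members lay between 0.18 and 0.26 and that of the sterol enzymes between 0.31 and 0.42, and 16 to 18 of the 18 enzymes were above 0. Members without overlap numbered 5 with upper-quartile scaling or quantile normalization, 9 with library totals and 8 to 13 with 1 library left out, against 7; over all genes the share was 17.9%, 18.1%, 18% and 24.4% to 36.9%, against 18.1%. The count over all genes was 358 with array weights, 1 with the replicate block and 4 to 174 with 1 library left out, against 90; the cause was not tested. Deviations from the group means correlated at −0.11, −0.02 and −0.18 between same-numbered libraries. With 3 libraries per group, these values cannot tell whether libraries of the same number share an origin. Under the replicate block the lowest adjusted p of a member was 0.605 (limma).

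Signs turned for Nr1h2 with upper-quartile scaling (−0.00169), for Scap with library totals (0.0176) and, with array weights, which gave RORγt+ replicate 3 a weight of 0.199, for Mvk (−0.213), Tm7sf2 (−0.172), Srebf1 (−0.035), Nr1h2 (−0.0551), Acly (−0.0432), Fasn (−0.0142), Acsl3 (0.261) and Elovl6 (0.216). With 1 library left out, the range of log2 fold changes crossed 0 for Scap (−0.189 to 0.167), Scd1 (−0.55 to 1.84), Mvk (−0.216 to 0.405), Tm7sf2 (−0.298 to 0.546), Srebf1 (−0.069 to 0.168), Srebf2 (−0.0241 to 0.366), Abca1 (−0.559 to 0.00505), Nr1h2 (−0.0901 to 0.0841), Acly (−0.0937 to 0.181), Fasn (−0.0851 to 0.355), Acsl3 (−0.295 to 0.28), Elovl6 (−0.263 to 0.305) and the median of the fatty acid genes (−0.017 to 0.153).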
